A study of Mus musculus with 8 samples.

Results

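The nuclear genes for the subunits of mitochondrial oxidative phosphorylation (OXPHOS) numbered 86 of the 18631 genes listed in these data. They were chosen by symbol: protein-coding mouse genes whose names begin with Ndufa, Ndufb, Ndufc, Ndufs or Ndufv, the Sdh genes a to d, those beginning with Uqcr, Cox4i, Cox5, Cox6, Cox7, Cox8 or Atp5, and Cyc1 and Cycs, without the assembly factors. Complex I held 36 of them, complex II 4, complex III 9, complex IV 19 and complex V 17, and cytochrome c 1. The tissue-restricted isoforms were counted with the complex they serve, and Ndufa4 and Ndufa4l2 with complex IV, where the NDUFA4 protein is now placed. The expression of these genes was compared between 2 mouse kidney epithelial cell lines and between THZ1 and its solvent.

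RNA-seq had been made from null(PN) cells, which are Pkd1-/-, with 50 nM THZ1 for 6 h and with DMSO, and from pkd1(PH) cells, which are Pkd1+/-, under the same treatments, with 2 libraries in each of the 4 groups. Pkd1 encodes polycystin-1, whose loss causes cystic kidney disease, and THZ1 is a covalent inhibitor of CDK7, a kinase that acts in transcription by RNA polymerase II and in the cell cycle. All groups shared a medium with serum, antibiotics, insulin, transferrin, selenium, IFNγ, nystatin and T3; how long DMSO was given is not stated in the labels. Each genotype is 1 cell line, so that genotype and any other difference between the lines cannot be told apart. Whether the replicates were separate cultures is not stated, and p-values here measure only the spread between these libraries, which may be technical.

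Oxidative phosphorylation makes most of the ATP of a respiring cell. Complex I takes electrons from NADH and complex II from succinate; ubiquinone carries them to complex III, cytochrome c carries them on to complex IV, which reduces oxygen, and complex V (ATP synthase) uses the proton gradient that complexes I, III and IV build. In the kidney the proximal tubule depends heavily on this pathway. The subunits of complexes I, III, IV and V come from both the nuclear and the mitochondrial genome. The subunits encoded by the mitochondrial genome are not analysed here.

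The values were FPKM, fragment counts divided by the length of the transcript and by the size of the library, so every level is a share of its library and a change in the total mRNA of a cell would not be seen. In bulk samples, fewer cells of a type and less RNA per cell cannot be told apart. Pkd1 was at 1.22 and 1.21 FPKM in null cells with THZ1, 1.69 and 1.32 in null cells with DMSO, 3.71 and 4.20 in heterozygous cells with THZ1 and 4.58 and 5.30 in heterozygous cells with DMSO, lower in the null line in every library. Of 7 markers of kidney epithelium, Pax8, Pax2, Cdh16, Krt8 and Krt18 were present, while Cdh1 and Epcam, which define most epithelia, were under 1 FPKM in all libraries. The 6 fibroblast markers and the 4 endothelial markers were under 1 FPKM throughout, as were 4 of 5 leukocyte markers. The fifth, Cd68, a lysosomal protein of macrophages, was at 4.82 and 3.94 FPKM in null cells with THZ1, 2.09 and 1.72 in null cells with DMSO, 3.09 and 2.70 in heterozygous cells with THZ1 and 2.85 and 2.64 in heterozygous cells with DMSO, and its part in the THZ1 results was not tested. The summed level of the 7 epithelial markers was 704 to 716 FPKM in null cells with THZ1, 735 to 742 in null cells with DMSO, 949 to 979 in heterozygous cells with THZ1 and 930.2 to 1008 in heterozygous cells with DMSO. It was lower in the null line, but not in all of its members: Cdh16 was at 299 to 314 FPKM in null cells with THZ1, 259 to 269 in null cells with DMSO, 183 to 185 in heterozygous cells with THZ1 and 176 to 188 in heterozygous cells with DMSO. In FPKM, though not in proportion, the lower values of the null line were widest in Krt8 and Krt18. Krt8 was at 178 to 186 FPKM over the null libraries and 313 to 339 over the heterozygous libraries. Krt18 was at 146 to 171 over the null libraries and 285 to 318 over the heterozygous libraries. Pax2 was also lower in null cells with THZ1, at 22.69 to 25.03 FPKM, than in null cells with DMSO, at 43.8 to 46.2. In heterozygous cells with THZ1 Pax2 had 70.7 and 78.2 FPKM. Pax8 had 47.7 and 50.8 FPKM in null cells with THZ1, against 77.2 and 77.7 in null cells with DMSO. The part of these markers in the differences was not tested. The steps between low FPKM values put the depth at 17500000 to 18400000 fragments per library. At that depth the scarcest tested OXPHOS gene, Ndufa11, rested on 122 to 201 fragments, and the median OXPHOS gene on 1492 to 2084. Replicate 1 of null cells with DMSO and replicate 2 of null cells with THZ1 stood apart, with 3378 and 3129 genes at 0.01 to 0.2 FPKM, against 2230 to 2586 in the other libraries. Counts without both are given beside the results. Replicates agreed closely for the OXPHOS genes, with a median absolute log2 difference of 0.054 to 0.060 between the 2 libraries of a group and a largest one of 0.289.

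A gene was tested if its mean was at least 1 FPKM over the 8 libraries. This held for 79 of the 86 OXPHOS genes. The 7 others all belong to complex IV: Cox4i2, Cox6a2, Cox6b2, Cox7a1, Cox7b2, Cox8b and Ndufa4l2, which are isoforms known from lung, muscle, heart, testis or hypoxic cells. Cox7a1, the heart and muscle isoform, was the highest of these at 0.45 to 1.35 FPKM, and Cox8b was listed at 0 in every library. The widely expressed partner was far more abundant in each case. Cox4i1 had 841 and 764 FPKM in null cells with THZ1, 532 and 528 in null cells with DMSO, 535 and 498 in heterozygous cells with THZ1 and 451 and 458 in heterozygous cells with DMSO. Cox6a1 had 929 and 849.6 FPKM in null cells with THZ1, 566 and 609.6 in null cells with DMSO, 769 and 732 in heterozygous cells with THZ1 and 612 and 642 in heterozygous cells with DMSO. The same held for other pairs of complex IV isoforms: Cox7a2, the partner of Cox7a1, stood at 72.4 to 116 FPKM, Cox8a, the partner of Cox8b, at 368 to 635, and Ndufa4, the partner of Ndufa4l2, at 423 to 692. Of the 3 genes that encode the same c subunit of the ATP synthase rotor, Atp5g3 had 467 and 448 FPKM in null cells with THZ1, 364 and 364 in null cells with DMSO, 382 and 365 in heterozygous cells with THZ1 and 314 and 333 in heterozygous cells with DMSO. Atp5g2 had 366 and 346 FPKM in null cells with THZ1, 282 and 279.9 in null cells with DMSO, 413 and 432 in heterozygous cells with THZ1 and 388 and 413 in heterozygous cells with DMSO, above Atp5g3 in both groups of heterozygous cells and below it in both groups of null cells, and Atp5g1 was the lowest of them in all 8 libraries at 110.2 to 174.

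Summed over the 86 genes, OXPHOS transcripts made up 3.36% and 3.25% of all FPKM in null cells with THZ1, 2.64% and 2.60% in null cells with DMSO, 3.12% and 3.05% in heterozygous cells with THZ1 and 2.80% and 2.83% in heterozygous cells with DMSO. In both lines, both THZ1 libraries were above both DMSO libraries. With THZ1 the sum was 1.34 times that with DMSO in null cells and 1.13 times in heterozygous cells. Complex IV had the widest difference in null cells, 4882 and 4556 summed FPKM with THZ1, against 3233 and 3119 with DMSO, a ratio of 1.49. The ratio was 1.31 for complex V, 1.28 for complex I and 1.25 for complex III. Complex II reached only 1.11, with 283 and 276 summed FPKM, against 253 and 251. In heterozygous cells the ratios of the 5 complexes lay between 1.07 for complex II and 1.16 for complex IV.

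**Figure D1:**
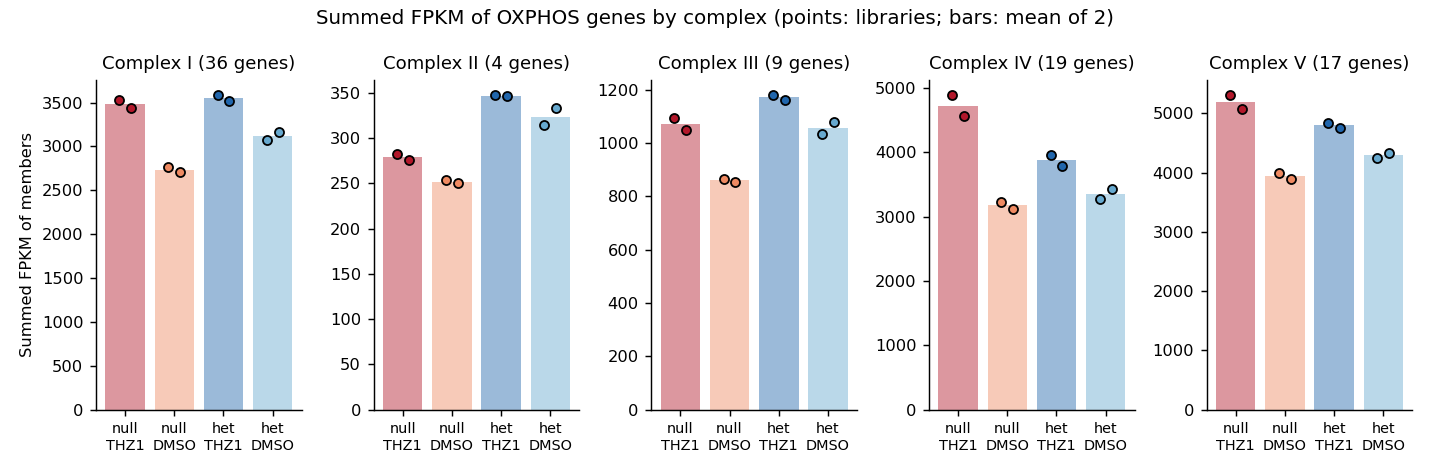
Summed FPKM of the OXPHOS genes of complexes I to V in each library (y axis), with bars for the mean of the 2 libraries of each group (x axis). In every complex both THZ1 libraries lie above both DMSO libraries of the same line, and in null cells the mean of complex IV is 1.49 times as high with THZ1.

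Null and heterozygous cells were compared under DMSO, the difference between the lines without the drug. Most called OXPHOS genes were lower in null cells. Of the 79 tested, 45 were lower and 11 higher in null cells (limma, adjusted p below 0.05), and 23 did not pass. Over all 10731 tested genes, 41.0% were called lower and 29.0% higher. The median difference of the OXPHOS genes was -0.18 on the log2(FPKM + 1) scale, on which all differences here are given with limma's standard error, and that of all tested genes was -0.07. The split moved with the scaling between libraries. It was 17 higher and 34 lower with median-of-ratios scaling and 16 higher and 37 lower with upper-quartile scaling. The median of all tested genes was then 0 and -0.01. The shares over all genes given above are those without scaling and cannot be set beside the scaled counts. Without the 2 libraries that stood apart, 10 were higher and 44 lower.

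In complex I, 21 of 36 genes were lower and 5 higher. Ndufv1 (chr19:4007499-4012755, GRCm38), the core subunit that binds NADH and FMN, had 80.3 and 82.3 FPKM in null cells with DMSO, against 121 and 135 in heterozygous cells with DMSO. This was a difference of -0.65 ± 0.05 (adjusted p = 1.04e-07). Ndufs1, the largest core iron-sulfur subunit, had 30.4 and 31.2 FPKM in null cells with DMSO, against 42.0 and 41.2 in heterozygous cells with DMSO, -0.42 ± 0.05 (adjusted p = 3.85e-06). Neither gene's groups overlapped. Null cells lay below without overlap for 48 of the 79 OXPHOS genes and for 5228 of all 10731 tested genes. The widest difference of the complex was in an accessory subunit of the peripheral arm, Ndufa5 (chr6:24518662-24527690). It had 51.3 and 53.5 FPKM in null cells with DMSO, against 101 and 96.3 in heterozygous cells with DMSO, -0.90 ± 0.05 (adjusted p = 2.86e-09). In the opposite direction, the accessory subunits Ndufa8 and Ndufa2 were higher in null cells. Ndufa8 had 97.1 and 98.7 FPKM in null cells with DMSO, against 74.4 and 79.8 in heterozygous cells with DMSO, 0.34 ± 0.04 (adjusted p = 1.49e-05), and the difference of Ndufa2 was 0.33 (adjusted p = 6.86e-05).

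All 4 genes of complex II, succinate dehydrogenase, were lower in null cells. Sdhc, a membrane anchor, had 75.5 and 80.6 FPKM in null cells with DMSO, against 109 and 119.8 in heterozygous cells with DMSO, -0.54 ± 0.05 (adjusted p = 9.28e-07). The difference was -0.18 (adjusted p = 0.00174) for Sdha, the flavoprotein, and -0.34 (adjusted p = 6.05e-05) for Sdhb, the iron-sulfur subunit. In complex III, 8 of 9 genes were lower and none was called higher; 5 of 9 were lower with median-of-ratios or upper-quartile scaling. Uqcrfs1, the Rieske iron-sulfur protein, had 57.0 and 53.5 FPKM in null cells with DMSO, against 80.9 and 85.9 in heterozygous cells with DMSO, -0.59 ± 0.05 (adjusted p = 2.03e-07). Uqcr10, a small subunit, differed by -0.58 (adjusted p = 4.86e-08) and Cyc1, cytochrome c1, by -0.32 (adjusted p = 8.02e-05). Cycs, the soluble cytochrome c, was lower too, with 71.0 and 63.9 FPKM in null cells with DMSO, against 81.2 and 84.5 in heterozygous cells with DMSO, -0.29 ± 0.05 (adjusted p = 0.000169). For Sdha the call was lost with median-of-ratios scaling, at -0.10.

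Complexes IV and V were divided. In complex IV, 3 of the 12 tested genes were lower and 2 higher. Cox5b (chr1:36691487-36693388), which lies on the matrix side of the enzyme, had 111 and 109.5 FPKM in null cells with DMSO, against 183 and 187 in heterozygous cells with DMSO, -0.74 ± 0.04 (adjusted p = 2.9e-09). Cox8a differed by -0.46 (adjusted p = 4.52e-05). Cox7a2l (chr17:83501917-83514333), a relative of Cox7a2 that joins complexes III and IV in supercomplexes, was higher, with 123 and 113 FPKM in null cells with DMSO, against 83.8 and 86.5 in heterozygous cells with DMSO, 0.46 ± 0.05 (adjusted p = 1.2e-06). Cox4i1, the ubiquitous form of subunit 4, was also higher, at 0.22 (adjusted p = 0.00186), whereas Cox5a, at -0.07 (adjusted p = 0.375), was not called. In complex V, 8 of 17 genes were lower and 4 higher. The lower ones included Atp5h, subunit d of the peripheral stalk, at -0.57 (adjusted p = 8.18e-08), Atp5g2 of the c ring at -0.51 (adjusted p = 5.17e-07) and Atp5b, the catalytic beta subunit, at -0.25 (adjusted p = 0.000126). Atp5j, the stalk subunit F6, had 182 and 181 FPKM in null cells with DMSO, against 148 and 143 in heterozygous cells with DMSO, 0.32 ± 0.05 (adjusted p = 3.65e-05). Atp5a1, the alpha subunit that pairs with beta in the same hexamer, was higher as well, at 0.23 (adjusted p = 0.000135).

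**Figure D2:**
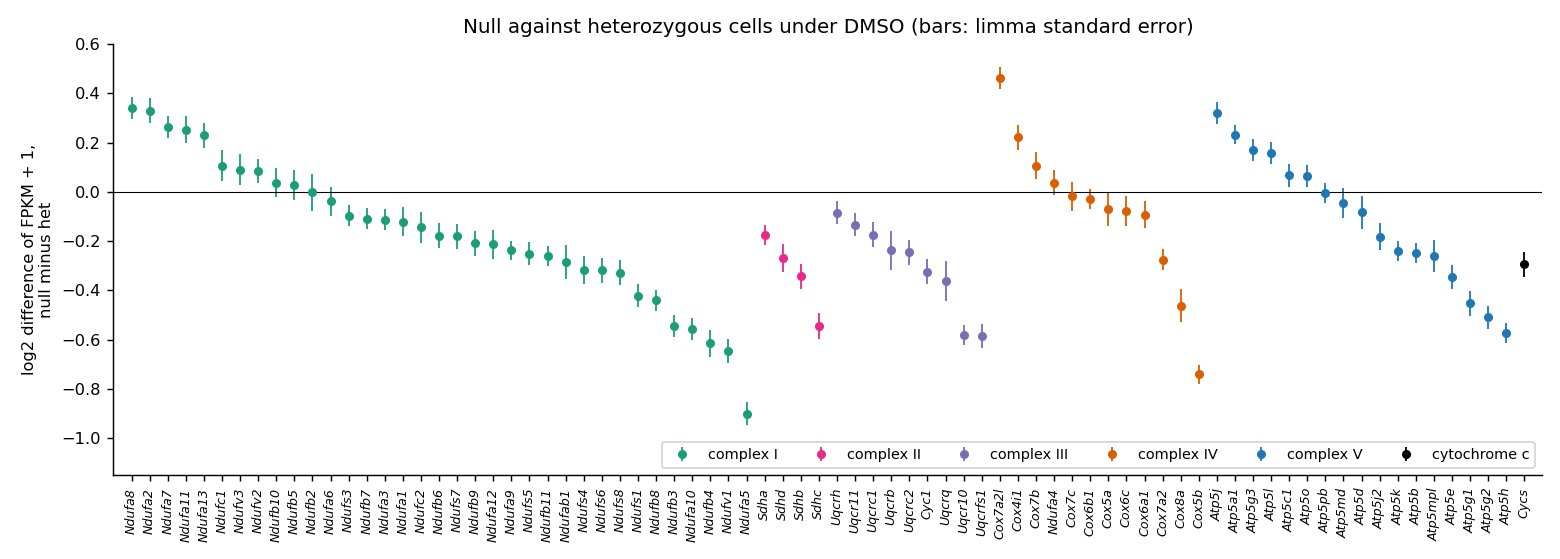
Log2 difference of FPKM + 1 (y axis), null minus heterozygous cells under DMSO, of 78 of the 79 tested OXPHOS genes (x axis, ordered within complexes), with limma's standard error as bars. All 4 complex II genes and all 9 complex III genes lie below 0, while complexes I, IV and V hold genes on both sides, between 0.46 for Cox7a2l and -0.90 for Ndufa5.

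The response of null cells to THZ1 was measured against null cells with DMSO. OXPHOS genes were mostly higher with the drug: 63 of 79 were called higher, 1 was called lower and 15 did not pass. Over all tested genes, 24.6% were called higher and 51.1% lower. The median change was 0.38 for the OXPHOS genes and -0.17 for all tested genes. Both THZ1 libraries were above both DMSO libraries for 67 of the 79, as for 29.9% of all tested genes. With median-of-ratios scaling, which brings the median of all genes to 0.03, 77 OXPHOS genes were called higher and none lower, beside 40.7% and 36.7% of all genes; with library totals it was 60 higher and 6 lower. Without the 2 libraries that stood apart, 63 were higher and 1 lower.

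Complexes IV and V had the highest shares of called genes without further scaling between libraries. All 12 tested complex IV genes were called higher, with a median change of 0.59. Cox4i1, among the first nuclear subunits to join the growing enzyme, had 841 and 764 FPKM in null cells with THZ1, against 532 and 528 in null cells with DMSO, a change of 0.60 ± 0.05 (adjusted p = 3.24e-07). Cox7a2 had 115 and 116 FPKM in null cells with THZ1, against 77.6 and 72.4 in null cells with DMSO, 0.62 ± 0.04 (adjusted p = 4.83e-08), and Cox6b1, on the intermembrane side, changed by 0.58 (adjusted p = 5.7e-08). Their groups did not overlap. Cox5a, which faces the matrix, changed by 0.36 (adjusted p = 0.000353). In complex V all 17 genes had a positive change, with a median of 0.42, and 16 were called higher. Atp5e (chr2:174461075-174464101), the epsilon subunit of the central stalk, changed most of all OXPHOS genes in this comparison. It had 205 and 188 FPKM in null cells with THZ1, against 113 and 117 in null cells with DMSO, 0.77 ± 0.05 (adjusted p = 1.69e-08). Atp5j2, subunit f of the membrane part, had 359 and 324 FPKM in null cells with THZ1, against 210.1 and 212 in null cells with DMSO, 0.69 ± 0.06 (adjusted p = 1.75e-07). The 2 subunits of the catalytic hexamer rose by less: Atp5b had 892 and 862 FPKM in null cells with THZ1, against 664 and 663 in null cells with DMSO, 0.40 ± 0.04 (adjusted p = 1.43e-06), and Atp5a1 changed by 0.20 (adjusted p = 0.000375). The 3 c-ring genes changed by 0.30 for Atp5g1, 0.34 for Atp5g2 and 0.33 for Atp5g3. Atp5pb, subunit b of the stalk and the complex V gene that did not pass, had 178 and 177 FPKM in null cells with THZ1, against 173 and 162 in null cells with DMSO.

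Within complex I the counts differed between accessory and core subunits. The change was positive in all 29 accessory genes, with a median of 0.39, and 26 were called higher and none lower. The 7 core genes carry the electron path in the peripheral arm. Their change was positive in 4, with a median of 0.07, and 1 was called higher and 1 lower. With median-of-ratios scaling 29 of 29 accessory genes and 5 of 7 core genes were called higher. Ndufb6 (chr4:40270591-40279421), an accessory subunit of the membrane arm, had 85.0 and 81.8 FPKM in null cells with THZ1, against 54.5 and 51.2 in null cells with DMSO, 0.65 ± 0.05 (adjusted p = 1.13e-07). Ndufb11, in the same arm, had 97.0 and 98.1 FPKM in null cells with THZ1, against 68.9 and 67.4 in null cells with DMSO, 0.51 ± 0.04 (adjusted p = 1.61e-07). Among the core genes, Ndufs1 (chr1:63143592-63176822) had 25.5 and 27.1 FPKM in null cells with THZ1, against 30.4 and 31.2 in null cells with DMSO. It was the only OXPHOS gene called lower, at -0.22 ± 0.05 (adjusted p = 0.000792), but its change was 0.00 with median-of-ratios scaling and -0.02 with upper-quartile scaling, neither of them called. Ndufv1 had 87.5 and 85.4 FPKM in null cells with THZ1, against 80.3 and 82.3 in null cells with DMSO, and its change of 0.09 (adjusted p = 0.119) was not called.

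Complexes II and III were mixed without further scaling between libraries. With median-of-ratios or upper-quartile scaling, all 4 genes of complex II and all 9 of complex III were called higher. The calls that follow are those without scaling. Both membrane anchors of complex II were called higher. Sdhd had 68.2 and 63.3 FPKM in null cells with THZ1, against 49.4 and 49.1 in null cells with DMSO, 0.41 ± 0.06 (adjusted p = 2.58e-05). For Sdhc the change was 0.14 (adjusted p = 0.0224), a call that was lost without replicate 1 of null cells with DMSO (adjusted p = 0.175) and without replicate 2 of null cells with THZ1 (adjusted p = 0.131). The catalytic subunits of complex II were not called, with changes of 0.09 (adjusted p = 0.0557) for Sdha and -0.03 (adjusted p = 0.558) for Sdhb. In complex III, 7 of 9 genes had a positive change and 6 were called higher. Uqcr11, a small subunit, had 234 and 216 FPKM in null cells with THZ1, against 153 and 156 in null cells with DMSO, 0.54 ± 0.05 (adjusted p = 2.82e-07). Uqcrh, the acidic hinge protein near cytochrome c1, changed by 0.52 (adjusted p = 5.85e-07). The redox-active subunits did not pass: Cyc1 had 109.5 and 112 FPKM in null cells with THZ1, against 113 and 117 in null cells with DMSO, and Uqcrfs1 52.8 and 52.0 FPKM in null cells with THZ1, against 57.0 and 53.5 in null cells with DMSO. Their changes of -0.06 and -0.07, and that of -0.03 for Sdhb, turned positive with median-of-ratios scaling, at 0.17, 0.15 and 0.19. These genes were called higher there. Cycs did not pass either, with 68.4 and 68.2 FPKM in null cells with THZ1, against 71.0 and 63.9 in null cells with DMSO, 0.02 (adjusted p = 0.733).

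**Figure D3:**
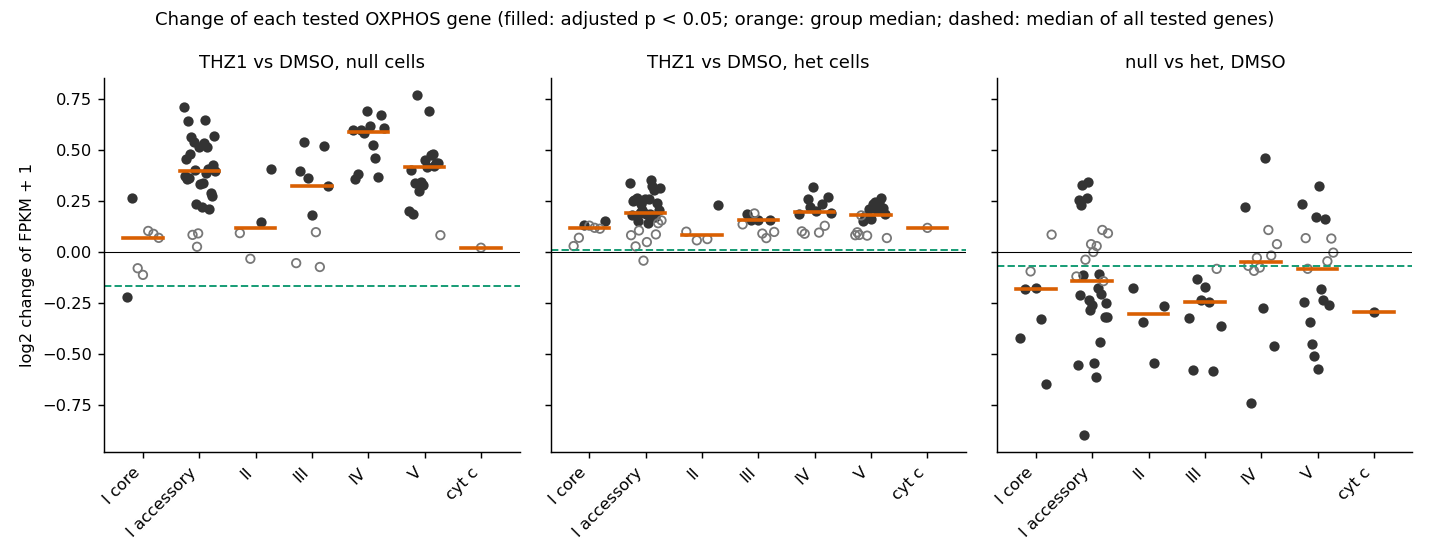
Log2 change of FPKM + 1 (y axis) of each tested OXPHOS gene by complex or subgroup (x axis), with filled points for an adjusted p below 0.05, an orange line for the median of the group and a dashed line for the median of all tested genes. The panels show THZ1 against DMSO in null cells and in heterozygous cells, and null against heterozygous cells under DMSO. With THZ1 in null cells the complex IV median is 0.59 and that of the complex I core genes 0.07, while the dashed line lies at -0.17; with median-of-ratios scaling that line moves to 0.03.

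The promoters of OXPHOS genes are known for sites of the nuclear respiratory factor NRF1, of ETS-family factors and of YY1. RefSeq promoter windows of 300 bases (GRCm38.p6, 250 before to 50 after a start) were at hand for 70 of the 86 genes. In each of complexes I to V, the gene called higher with THZ1 in null cells at the smallest adjusted p was chosen, among those with 1 window. Uqcrfs1 and Cycs, which were not called, were added. Those of Sdhd, of complex II, and of Cycs are not printed. The windows below are those of 4 genes called higher, Atp5e, Ndufb6, Uqcr11 and Cox7a2, and of 1 that was not called, Uqcrfs1. They are Atp5e (chr2:174464052-174464351, minus strand), Ndufb6 (chr4:40279372-40279671, minus strand), Uqcr11 (chr10:80406772-80407071, minus strand), Cox7a2 (chr9:79759804-79760103, minus strand) and Uqcrfs1 (chr13:30545267-30545566, minus strand), each written 5′ to 3′ in the direction of the gene. Capitals mark the ETS motif CCGGAAG on either strand.
Atp5e: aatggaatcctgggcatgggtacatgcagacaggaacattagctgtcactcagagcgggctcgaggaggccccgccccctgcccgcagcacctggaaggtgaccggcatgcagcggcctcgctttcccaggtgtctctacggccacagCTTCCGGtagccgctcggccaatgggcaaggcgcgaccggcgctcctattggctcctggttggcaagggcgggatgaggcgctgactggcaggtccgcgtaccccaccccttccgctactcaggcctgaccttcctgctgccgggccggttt
Ndufb6: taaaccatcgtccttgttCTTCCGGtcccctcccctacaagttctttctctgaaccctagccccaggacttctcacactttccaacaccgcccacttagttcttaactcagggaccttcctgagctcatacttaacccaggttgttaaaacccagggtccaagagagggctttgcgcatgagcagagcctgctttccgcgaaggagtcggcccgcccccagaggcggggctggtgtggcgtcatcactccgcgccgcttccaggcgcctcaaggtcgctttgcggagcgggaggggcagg
Uqcr11: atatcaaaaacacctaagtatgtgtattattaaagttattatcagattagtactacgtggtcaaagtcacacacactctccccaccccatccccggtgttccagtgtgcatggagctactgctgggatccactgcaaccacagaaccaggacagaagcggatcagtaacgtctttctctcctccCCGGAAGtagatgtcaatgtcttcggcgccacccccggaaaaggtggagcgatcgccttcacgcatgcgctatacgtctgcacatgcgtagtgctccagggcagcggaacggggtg
Cox7a2: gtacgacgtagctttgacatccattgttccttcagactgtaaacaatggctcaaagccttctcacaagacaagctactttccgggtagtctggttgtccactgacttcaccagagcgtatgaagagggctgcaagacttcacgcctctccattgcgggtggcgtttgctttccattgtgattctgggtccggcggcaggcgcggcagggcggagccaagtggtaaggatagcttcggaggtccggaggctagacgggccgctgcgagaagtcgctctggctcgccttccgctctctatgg
Uqcrfs1: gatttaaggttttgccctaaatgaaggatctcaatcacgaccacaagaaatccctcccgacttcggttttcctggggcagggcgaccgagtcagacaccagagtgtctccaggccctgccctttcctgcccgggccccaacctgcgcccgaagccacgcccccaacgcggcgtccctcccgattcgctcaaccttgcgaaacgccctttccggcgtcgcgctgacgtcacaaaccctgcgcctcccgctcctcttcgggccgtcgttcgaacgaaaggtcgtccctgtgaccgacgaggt
The ETS letters occurred once in each of the first 3 windows, on the reverse strand for Atp5e and Ndufb6, and none of the motifs searched occurred in those of Cox7a2 and Uqcrfs1. Of the windows chosen but not printed, that of Sdhd held 1 NRF1 and 1 ETS match and that of Cycs held none. The ETS letters also occurred in the windows of Sdhb, Ndufs3 and Ndufs8, which were not called. Counted by gene on both strands, the NRF1 motif, GCGCA then any base and GCGC, occurred in 25.8% of 66 tested OXPHOS genes and 12.7% of 8689 tested genes with a window. The YY1 motif AAGATGGCG occurred in 10.6% and 3.94%, and the ETS motif in 25.8% and 22.1%. An ETS and a YY1 match can share the letters AAG. Counted by window, the shares of the 75 OXPHOS windows were 24% for NRF1, 22.7% for ETS and 9.33% for YY1, and those of all 32851 windows 4.60%, 8.86% and 1.40%. All windows include those of genes that were not tested, so the shares by window and by gene are over unlike sets. Among the 53 OXPHOS genes called higher with THZ1 in null cells the shares were 28.3% for NRF1, 26.4% for ETS and 11.3% for YY1, and among the 13 others 15.4%, 23.1% and 7.69%. No test was made of these shares, and a match of letters does not show that a factor binds.

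In heterozygous cells THZ1 also gave higher values, by smaller amounts. Of the 79 OXPHOS genes 47 were called higher, none lower and 32 not, beside 12.2% higher and 10.3% lower over all tested genes. At an unadjusted p below 0.05, 60 were higher and 0 lower in the same limma fit. The share of all tested genes at that threshold was not counted, so the 12.2% cannot be set beside this count. The median change was 0.17 for the OXPHOS genes and 0.01 for all tested genes. By complex, 23 of 36 genes of complex I, 1 of 4 of complex II, 4 of 9 of complex III, 8 of 12 of complex IV and 11 of 17 of complex V rose. The count of 47 fell to 34, with none lower, with median-of-ratios, upper-quartile or library total scaling. In those fits 9.9%, 9.9% and 7.02% of all tested genes were called higher. The count also rested on single libraries. It was 13 without replicate 1 of heterozygous cells with THZ1, when 3.68% of all genes were called higher, and 19 without replicate 1 of heterozygous cells with DMSO, when 5.4% were. The median change was 0.16 in both. The calls in complexes III, IV and V depended strongly on replicate 1 of heterozygous cells with THZ1. Without it the median change was 0.17 for complexes I and V and 0.15 for complexes III and IV.

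Ndufb6 and Ndufb7, accessory subunits of the membrane arm of complex I, were the genes of that complex with the smallest p. Ndufb6 had 79.9 and 74.0 FPKM in heterozygous cells with THZ1, against 59.0 and 60.8 in heterozygous cells with DMSO, 0.35 ± 0.05 (adjusted p = 0.000836), and Ndufb7 changed by 0.32 (adjusted p = 0.00046). Sdhd, the one called gene of complex II, had 71.8 and 68.0 FPKM in heterozygous cells with THZ1, against 56.3 and 63.0 in heterozygous cells with DMSO, 0.23 ± 0.06 (adjusted p = 0.0143). In complex III, Uqcr10 changed by 0.18 (adjusted p = 0.00794) and Uqcr11 by 0.16 (adjusted p = 0.0275). In complex IV, Cox6c had 242 and 228 FPKM in heterozygous cells with THZ1, against 193 and 184 in heterozygous cells with DMSO, 0.32 ± 0.06 (adjusted p = 0.00517), Cox6b1 changed by 0.22 (adjusted p = 0.00403) and Cox4i1 by 0.18 (adjusted p = 0.0245). In complex V, Atp5l, subunit g of the membrane part, changed by 0.24 (adjusted p = 0.00349) and Atp5j by 0.24 (adjusted p = 0.00448). The THZ1 values of these genes lay above the DMSO values without overlap. This also held for 71 of the 79 OXPHOS genes and for 3681 of all 10731 tested genes. Without replicate 1 of heterozygous cells with THZ1, however, the adjusted p was 0.0507 for Atp5j and Cox6c and 0.0533 for Cox6b1. In the same fit it was 0.207 for Cox4i1, 0.119 for Sdhd, 0.0639 for Uqcr10 and 0.0623 for Uqcr11. Without replicate 1 of heterozygous cells with DMSO it was 0.106 for Cox4i1, 0.124 for Sdhd, 0.0572 for Uqcr10 and 0.0897 for Uqcr11. Cox4i1 also lost its call without replicate 2 of heterozygous cells with DMSO (0.0563), and Uqcr11 without that library (0.0769) or replicate 2 of heterozygous cells with THZ1 (0.195).

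The catalytic and core genes whose values are given in every comparison, other than Cox4i1, were not called in heterozygous cells. Their changes were 0.03 for Ndufs1, 0.11 for Ndufv1, 0.10 for Sdha, 0.06 for Sdhb, 0.13 for Cyc1, 0.07 for Uqcrfs1, 0.10 for Cox5a, 0.08 for Atp5a1, 0.10 for Atp5b and 0.12 for Cycs. Atp5b had 842 and 843 FPKM in heterozygous cells with THZ1, against 778 and 799 in heterozygous cells with DMSO, which did not overlap. The change was positive in all 7 core genes of complex I and in 28 of the 29 accessory genes. Of these sets, 2 core genes and 21 accessory genes were called higher. With median-of-ratios or upper-quartile scaling the called counts were 0 and 17, and with library totals 0 and 16. Of the OXPHOS genes, 44 were called higher with THZ1 in both lines, 19 in null cells but not in heterozygous cells and 3 in heterozygous cells but not in null cells. These were 55.7%, 24.1% and 3.80% of the 79, and the same patterns held for 8.28%, 16.4% and 3.89% of all tested genes. Those 3, named after their values were seen, were Ndufb10, Ndufs3 and Ndufv2, all of complex I. The core genes Ndufs3 and Ndufv2 were not called in heterozygous cells with median-of-ratios, upper-quartile or library total scaling. The changes in the 2 lines come from different libraries; their Spearman correlation over the 79 genes was 0.63, and 0.58 over all tested genes, as a description over genes that share libraries.

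The 2 responses were then compared directly, as the difference between the THZ1 change in null cells and that in heterozygous cells. It was positive and called for 44 of the 79 OXPHOS genes, negative and called for 4, and not called for 31. Over all tested genes 15.1% were positive and 45.1% negative. The median was 0.22 for the OXPHOS genes and -0.19 for all tested genes. With median-of-ratios scaling, which moved the median of all genes to 0.02, 70 were positive and none negative. In that fit 32.4% of all tested genes were positive and 29.1% negative. Without the 2 libraries that stood apart, 43 were positive and 3 negative.

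The difference was positive and called for all 12 complex IV genes. In complex V it was positive for all 17 genes and called for 10. With median-of-ratios or upper-quartile scaling, all 17 genes of complex V were called positive. The widest difference was in Atp5e, at 0.62 ± 0.07 (adjusted p = 8.28e-06). Atp5e had 205 and 188 FPKM in null cells with THZ1, 113 and 117 in null cells with DMSO, 159 and 166 in heterozygous cells with THZ1 and 149 and 144 in heterozygous cells with DMSO, so its DMSO level was lower in null cells and its THZ1 level higher. The difference was 0.44 (adjusted p = 0.000369) for Atp5j2, 0.31 (adjusted p = 0.000598) for Atp5b, 0.41 (adjusted p = 0.000366) for Cox4i1, 0.42 (adjusted p = 8.84e-05) for Cox7a2 and 0.43 (adjusted p = 9.79e-05) for Cox7a2l. Cox7a2l had 171 and 168 FPKM in null cells with THZ1, 123 and 113 in null cells with DMSO, 90.7 and 91.1 in heterozygous cells with THZ1 and 83.8 and 86.5 in heterozygous cells with DMSO. Its THZ1 response was 0.52 (adjusted p = 3.18e-07) in null cells and 0.09 (adjusted p = 0.15) in heterozygous cells. In complex III the difference was positive for 7 of 9 genes. It was positive and called for 3, among them Uqcr11 at 0.38 (adjusted p = 0.000278) and Uqcrh at 0.36 (adjusted p = 0.000551). No gene of complex II was called, with values of -0.01 for Sdha, -0.09 for Sdhb, 0.08 for Sdhc and 0.18 for Sdhd. With median-of-ratios or upper-quartile scaling, 3 of these 4 were called positive.

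In complex I the difference was positive for 27 of the 29 accessory genes, of which 18 were called, and no accessory gene had a called negative one. Of the 7 core genes 1 had a called positive difference and 3 a called negative one. Ndufa5 differed by 0.41 (adjusted p = 0.000156) and Ndufb11 by 0.33 (adjusted p = 0.000368). The 3 negative ones were Ndufs1 at -0.25 (adjusted p = 0.00576), Ndufs3 at -0.21 (adjusted p = 0.00763) and Ndufs7, named after its values were seen, at -0.24 (adjusted p = 0.0115), all subunits of the peripheral arm. Ndufs3 had 64.0 and 66.3 FPKM in null cells with THZ1, 69.0 and 69.0 in null cells with DMSO, 81.7 and 80.1 in heterozygous cells with THZ1 and 75.4 and 72.3 in heterozygous cells with DMSO. Cyc1 of complex III was the other gene with a called negative difference, at -0.19 (adjusted p = 0.0355). None of these 4 was called with median-of-ratios or upper-quartile scaling, and Ndufs3 and Cyc1 then changed sign, to 0.02 and 0.05 with median-of-ratios scaling. With either scaling, 3 of the 7 core genes and 28 of the 29 accessory genes were called positive, and none of them negative. The difference of Cox5a, 0.26 (adjusted p = 0.0339), lost its call without any 1 of 6 libraries, with adjusted p of 0.0567 to 0.162; it was kept without replicate 1 of null cells with DMSO and without replicate 1 of heterozygous cells with DMSO. Cyc1 lost its call without replicate 1 of heterozygous cells with DMSO (-0.11, adjusted p = 0.141), replicate 1 of heterozygous cells with THZ1, replicate 2 of null cells with DMSO or either library of null cells with THZ1 (adjusted p of 0.0538 to 0.130 for these 4). Ndufv1, Uqcrfs1, Atp5a1 and Cycs were not called, at -0.03, -0.14, 0.12 and -0.10. Atp5a1 was called positive with median-of-ratios and with upper-quartile scaling.

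**Figure D4:**
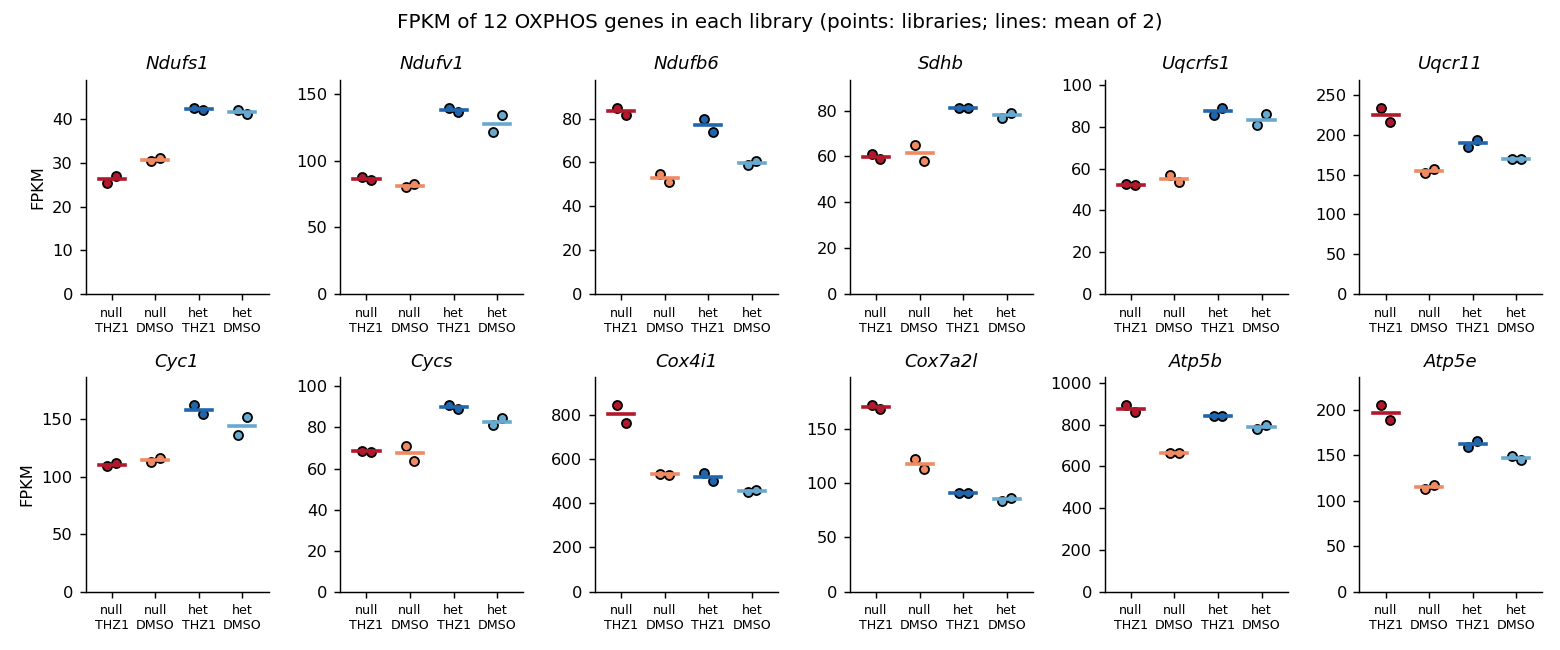
FPKM (y axis of each panel, from 0) of 12 OXPHOS genes in each library, with lines for the mean of the 2 libraries of each group (x axis). Atp5e reaches 205 and 188 FPKM in null cells with THZ1, against 113 and 117 in null cells with DMSO, while Ndufs1 and Uqcrfs1 are lower in null cells than in heterozygous cells under both treatments.

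Under THZ1 the lines were compared once more. Of the 79 OXPHOS genes 32 were higher in null cells, 27 lower and 20 not called, beside 25.1% higher and 58.1% lower over all tested genes. The median difference was 0.01 for the OXPHOS genes and -0.28 for all tested genes. Here the split depended on the scaling. It was 55 higher and 9 lower with median-of-ratios scaling, where the median of all genes was 0. With upper-quartile scaling it was 54 higher and 11 lower. The shares over all genes given above are those without scaling and cannot be set beside these scaled counts. Without the 2 libraries that stood apart, 29 were higher and 26 lower.

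Complex IV was mostly higher in null cells with THZ1, at 10 of 12 genes, with 1 lower. Cox7a2l had 171 and 168 FPKM in null cells with THZ1, against 90.7 and 91.1 in heterozygous cells with THZ1, 0.89 ± 0.05 (adjusted p = 1.05e-09). Cox4i1 had 841 and 764 FPKM in null cells with THZ1, against 535 and 498 in heterozygous cells with THZ1, 0.63 ± 0.05 (adjusted p = 9.05e-08). Cox5b was the gene that stayed lower, with 145 and 142 FPKM in null cells with THZ1, against 194 and 198 in heterozygous cells with THZ1, -0.45 ± 0.04 (adjusted p = 1.38e-07). Cox5a was higher at 0.19 (adjusted p = 0.0202). That call was lost without replicate 2 of heterozygous cells with THZ1 (adjusted p = 0.0726), replicate 1 of null cells with THZ1 (0.0773) or replicate 2 of null cells with THZ1 (0.0591). In complex V, 8 genes were higher and 3 lower. Atp5j was higher at 0.50 (adjusted p = 2.86e-07) and Atp5a1 at 0.35 (adjusted p = 1.72e-06). Atp5g1 was lower at -0.33 (adjusted p = 5.83e-05), a call lost with median-of-ratios scaling (-0.02), and Atp5h at -0.28 (adjusted p = 3.14e-05), which turned to 0.03 there. Atp5b, at 0.06 (adjusted p = 0.201), did not pass.

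Complex I held 12 higher and 14 lower genes. None of its 7 core genes was called higher and 5 were lower. Ndufv1 had 87.5 and 85.4 FPKM in null cells with THZ1, against 139.8 and 137 in heterozygous cells with THZ1, -0.67 ± 0.05 (adjusted p = 3.14e-08). Ndufs1 had 25.5 and 27.1 FPKM in null cells with THZ1, against 42.7 and 42.2 in heterozygous cells with THZ1, -0.67 ± 0.05 (adjusted p = 2.08e-08). Among the accessory genes, Ndufa2 was higher at 0.66 (adjusted p = 4.9e-08) and Ndufa7 at 0.61 (adjusted p = 4.69e-08). In complex II 3 genes were lower: Sdhb at -0.43 (adjusted p = 4.05e-06), Sdhc at -0.46 (adjusted p = 2.2e-06) and Sdha at -0.18 (adjusted p = 0.000937), of which Sdha turned to 0.13 and Sdhb lost its call with median-of-ratios scaling. In complex III 5 were lower and 2 higher. Uqcrfs1 had 52.8 and 52.0 FPKM in null cells with THZ1, against 85.7 and 89.1 in heterozygous cells with THZ1, -0.73 ± 0.05 (adjusted p = 1.12e-08), and Cyc1 differed by -0.51 (adjusted p = 6.09e-07), whereas Uqcr11 and Uqcrh were higher at 0.25 and 0.28. Cycs was lower at -0.39 (adjusted p = 7.9e-06), which was not called with median-of-ratios scaling (-0.08). The differences between the lines under THZ1 and under DMSO come from separate libraries, and their Spearman correlation over the 79 genes was 0.85, beside 0.72 over all tested genes.

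The factors that assemble the complexes, which are not built into the finished enzymes, gave other counts than the subunits. Of 51 listed factors 50 were tested. With THZ1 in null cells 3 were higher and 31 lower, or 6.0% and 62.0% beside 24.6% and 51.1% of all tested genes, with a median of -0.33. Median-of-ratios scaling gave 17 higher and 22 lower, or 34.0% and 44.0% beside 40.7% and 36.7% of all tested genes, with a median of -0.14, while 77 of the 79 subunit genes were higher in that fit. In heterozygous cells 4 were higher and 4 lower, 8.0% each beside 12.2% and 10.3% of all tested genes, with a median of 0.04. The difference between the 2 responses was negative and called for 28 and positive for 2, or 56.0% and 4.0% beside 45.1% and 15.1%; with median-of-ratios scaling it was negative for 21 and positive for 6. The factors named here were chosen by the size of their change after the values were seen. Coa3, which acts in the first steps of complex IV assembly, had 29.4 and 32.4 FPKM in null cells with THZ1, against 74.0 and 70.7 in null cells with DMSO, -1.20 ± 0.06 (adjusted p = 2.06e-09), and 101 and 103 FPKM in heterozygous cells with THZ1, against 120.2 and 133 in heterozygous cells with DMSO, -0.31 ± 0.06 (adjusted p = 0.00361). Coa4, another complex IV factor, changed by -1.61 (adjusted p = 2.97e-08) in null cells. Taco1, which activates the translation of mitochondrial Cox1, changed by -1.16 (adjusted p = 4.99e-07), and Sco2, a copper carrier for complex IV, by -1.005 (adjusted p = 5.57e-07). Bcs1l, which inserts the Rieske protein into complex III, changed by -0.96 (adjusted p = 9.57e-07). The 3 that were higher were Ndufaf2 at 0.42 (adjusted p = 4.6e-05), Pet100 at 0.27 (adjusted p = 0.00287) and Acad9 at 0.20 (adjusted p = 0.00787). Between the lines, 25 factors were lower and 5 higher in null cells under DMSO, with a median of -0.18, beside 41.0% of all tested genes lower and a median of -0.07. The 25 were 50% of the factors. Under THZ1 39, or 78%, were lower and 3 higher, with a median of -0.68, beside 58.1% of all tested genes lower and a median of -0.28. Median-of-ratios scaling gave 22 lower and 9 higher under DMSO, where the median of all tested genes was 0. The shares of all tested genes beside the counts between the lines are those without scaling and cannot be set beside the scaled counts.

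OXPHOS subunit transcripts are mostly short and abundant, and both properties moved with the THZ1 change. Over the 79 genes the Spearman correlation between spliced length and the change in null cells was -0.56, and -0.02 over 10674 tested genes with a length. In heterozygous cells it was -0.45, and -0.27 over the tested genes. With the mean level it was 0.34 over the OXPHOS genes in null cells and 0.33 over the tested genes, and 0.17 and 0.24 in heterozygous cells. These are descriptions over genes that share libraries. Split at 623 and 1079 nt, the 27 shortest OXPHOS genes had 26 higher and 0 lower with THZ1 in null cells, with a median of 0.48. The middle 25 had 21 higher and a median of 0.38, and the 27 longest had 16 higher and 1 lower, with a median of 0.19. Other tested genes of the same lengths moved with length too. The 113 shortest had 64 higher and 19 lower, with a median of 0.31, the 634 in the middle had 224 higher and 257 lower, with a median of -0.03, and the 9848 longest had 2280 higher and 5177 lower, with a median of -0.19. In heterozygous cells the medians were 0.19, 0.18 and 0.10 for the OXPHOS genes from short to long and 0.13, 0.09 and 0.00 for the others. Within each length class the median of the OXPHOS genes was above that of the other genes in both lines. The longest class had no upper bound, so lengths were not matched between the OXPHOS genes and the others. The part of length or level in the result was not tested.

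**Figure D5:**
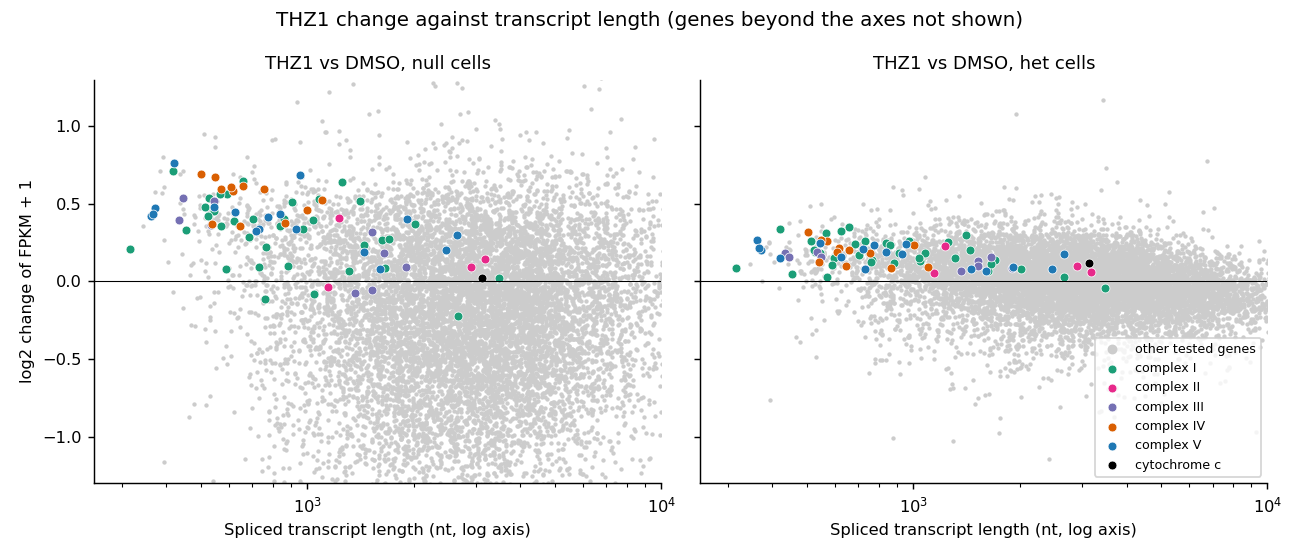
Log2 change of FPKM + 1 with THZ1 (y axis) against spliced transcript length in nt (x axis, log scale) in null cells (left) and heterozygous cells (right), with the tested OXPHOS genes coloured by complex and the other tested genes in grey. The shortest OXPHOS genes have a median change of 0.48 in null cells and the longest one of 0.19.

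Some OXPHOS genes have copies elsewhere in the genome, which can take up reads where the sequences are alike. Copies were looked for by symbol, and their sequences were not compared. A named copy is annotated for 15 of the 86, among them Atp5l, Atp5pb, Cox5b, Cox6c, Cycs, Ndufb4, Ndufs5 and Uqcrh. Their values are less certain, since the sources used here do not say how such reads were counted.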

How the data were processed

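Poly(A) RNA was sequenced in 2 libraries of each of 4 groups after TRIzol isolation and oligo dT selection, per the labels' protocols. The authors deposited 1 FPKM value per gene and library, rounded to 2 decimals. Per the submitters' processing notes, Bowtie2, DESeq2 and mm10 were used; which program made the FPKM values, and its strand setting, is not given in the sources used here. Symbols and coordinates came from a RefSeq table of GRCm38.p6, and lengths from GENCODE M21 transcripts. The 79 OXPHOS genes and all others with a mean of at least 1 FPKM (10731) were tested as log2(FPKM + 1) with limma 3.58.1 (limma-trend, two-sided, Benjamini-Hochberg over all genes, R 4.3.3), 1 mean per group, with 4 residual degrees of freedom. The pseudocount of 1 understates changes of low genes. The fit was tested on simulated data. Named genes were, per comparison and complex, up to 2 called genes in each direction with the smallest adjusted p, with fixed core genes and isoforms; 1 gene is counted but not reported by name here. Members and lists were chosen with earlier results of these data known. Alternatives changed the scaling, filter, pseudocount, trend, libraries and replicate block. The labels do not say whether same-numbered replicates were paired.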

Additional observations from a re-analysis of the deposited data

Results flagged for a closer look

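The THZ1 response differed between null and heterozygous cells for 48 of the tested OXPHOS genes, 44 with a positive and 4 with a negative difference, by the test of that difference in limma (adjusted p below 0.05). Given here, on the log2(FPKM + 1) scale, are the 14 that the naming rule picked. The response was larger in null cells for Atp5e by 0.62, Atp5j2 by 0.44, Cox7a2l by 0.43, Cox7a2 by 0.42, Cox4i1 by 0.41, Ndufa5 by 0.41, Uqcr11 by 0.38, Uqcrh by 0.36, Ndufb11 by 0.33, Atp5b by 0.31 and Cox5a by 0.26. It was more negative in null cells for Ndufs1 at -0.25, Ndufs3 at -0.21 and Cyc1 at -0.19. Ndufs7, the fourth gene with a called negative difference, lay outside the rule. The 3 negative differences given here were not called with median-of-ratios scaling. These genes were named partly for this difference, and groups of 2 libraries were too small for a check of single outlying samples.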

How the results depend on the processing

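With median-of-ratios scaling, 17 OXPHOS genes were higher in null cells under DMSO, against 11 without it. Genes called lower with THZ1 in null cells numbered 1, against 0 with median-of-ratios and with upper-quartile scaling, 6 with library totals, 2 with the replicate block, 2 in a fit on the libraries compared and 1 to 2 when single libraries were left out. In heterozygous cells the 47 called higher became 18 without a filter, 27 without the trend and 13 to 46 when single libraries were left out. The difference between the responses was positive for 70 with either scaling, against 44, and negative for 0 with either, against 4; it was negative for 7 without replicate 2 of null cells with DMSO, and for 3 to 7 over single libraries left out. Between the lines under THZ1, 55 were higher and 9 lower with median-of-ratios scaling and 54 and 11 with upper-quartile scaling, against 32 and 27. The shares over all tested genes moved as well. For the difference between the responses they were 32.4% positive and 29.1% negative with median-of-ratios scaling, against 15.1% and 45.1%. The cause of these shifts was not tested.

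Directions that changed are given on the log2 scale. With THZ1 in null cells, median-of-ratios scaling gave 0.00 for Ndufs1, 0.19 for Sdhb, 0.17 for Cyc1 and 0.15 for Uqcrfs1; upper-quartile scaling gave 0.18 for Sdhb, 0.16 for Cyc1 and 0.13 for Uqcrfs1; library totals gave -0.067 for Cycs and, in heterozygous cells, -0.018 for Ndufs1. For the difference between the responses, median-of-ratios scaling gave 0.023 for Ndufs3, 0.21 for Ndufv1, 0.23 for Sdha, 0.14 for Sdhb, 0.046 for Cyc1, 0.092 for Uqcrfs1 and 0.14 for Cycs; upper-quartile scaling gave 0.01, 0.20, 0.21, 0.13, 0.033, 0.079 and 0.12 for the same genes. Between the lines, median-of-ratios scaling gave 0.005 for Cox5a under DMSO and, under THZ1, 0.13 for Sdha and 0.028 for Atp5h; upper-quartile scaling gave 0.10 and 0.004 for those 2. With single libraries left out, values ran between -0.18 and 0.042 for Cox5a under DMSO, -0.11 and 0.045 for Sdhb and -0.055 and 0.095 for Cycs with THZ1 in null cells, and -0.099 and 0.049 for Ndufv1, -0.036 and 0.022 for Sdha and -0.17 and -0.011 for Sdhb in the difference between the responses. Without both libraries that stood apart, a setting chosen after seeing the data, Sdhb changed by 0.073 with THZ1 in null cells, and the difference between the responses was 0.03 for Sdha and 0.017 for Sdhb.

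Same-numbered replicates showed no strong shared effect: the correlation of the difference between replicates 1 and 2 ran from -0.09 to 0.14 over pairs of groups. This cannot show whether same-numbered libraries were handled together, which the labels do not state. With the replicate block, 11 were higher and 47 lower between the lines under DMSO, 63 and 2 with THZ1 in null cells, 47 and 0 in heterozygous cells, 45 and 4 for the difference between the responses, and 33 and 27 between the lines under THZ1. FPKM values show neither changes in total mRNA nor absolute amounts, and 2 libraries per group limit the precision of every value.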
